A study of Mus musculus with 5 samples.

Results

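The smooth-muscle contractile genes Acta2, Cnn1, Myh11, Tagln, Mylk and Myl9 together with the tropomyosins Tpm1 and Tpm2, the LIM protein gene Csrp1 and the matrix gene Sparc were followed in 5 single-cell RNA libraries of the mouse submandibular salivary gland. The 10 genes were taken by name from the deposited gene lists, and all 10 of them stood among the 30406 genes that the 5 lists share. Each gene was described by its level in each library and by whether it was found in the same cell barcodes as the others.

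The libraries were made from C57BL/6 mice, female in the study's methods and aged 8 to 12 weeks in the 4 libraries whose labels give an age, and each library is the only one of its group. Control 7-day organoids received no radiation, photon 7-day organoids received 7 Gy of photons and proton 7-day organoids 7 Gy of protons, in both cases on day 5 with collection on day 7. Control 11-day organoids were not irradiated, came from another batch of animals and were sequenced in a separate run. Fresh tissue was gland dissociated without culture and not irradiated. All organoids, controls included, were grown in Matrigel in WRY medium, which holds Wnt3a and R-spondin1 conditioned media, EGF, FGF2, dexamethasone and the ROCK inhibitor Y27632. Y27632 blocks a kinase that drives actomyosin contraction, and it was present in every organoid group but not in the fresh tissue as far as the labels state. Organoids came from 4 animals, which the files do not tell apart, and 45000 cells negative for propidium iodide were sorted per library before droplet capture with 3′ end counting.

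Myoepithelial cells are flattened epithelial cells that wrap the acini and ducts of salivary glands and squeeze saliva out of them. They express basal keratins such as Krt14 and Krt5 like other basal epithelial cells, and in addition a contractile apparatus of the smooth-muscle type, built on alpha smooth muscle actin (Acta2), which pericytes and vascular smooth muscle also carry. In smooth muscle, calcium-bound calmodulin activates the kinase encoded by Mylk, which phosphorylates the regulatory light chain encoded by Myl9 on the myosin heavy chain encoded by Myh11. Calponin (Cnn1), transgelin (Tagln) and tropomyosin bind the actin filament, and many of these genes are switched on by serum response factor at short promoter elements named CArG boxes.

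On the GRCm38.p6 annotation no gene overlaps another, and Cnn1 (chr9:22099221-22109221), Tagln (chr9:45929628-45936058) and Tpm1 (chr9:67022590-67049672) share chromosome 9, and Myh11 (chr16:14194527-14292188) and Mylk (chr16:34745199-35002436) share chromosome 16. The others are Acta2 (chr19:34240336-34255585), Myl9 (chr2:156775408-156781657), Tpm2 (chr4:43513726-43523583), Csrp1 (chr1:135720063-135752229) and Sparc (chr11:55394159-55420080). RefSeq promoter windows of the same build, from 250 bases before to 50 bases after a gene's start, were at hand for 8 of the 10 genes. Only the 250 bases before the start were searched for the CArG box, on both strands. The exact CArG box was found there in 1.47% of all 32851 windows, and a CArG-like box, with 1 C or G allowed among the 6 bases of its core, in 8.59%. Of the windows of these 8 genes (Csrp1 has 2), those of Acta2 and Myl9 held such a box before the start, and those of Cnn1, Mylk, Tpm1, Tpm2, Csrp1 and Sparc held none there. The stretches around the 4 boxes are shown because Acta2 and Myl9 are the genes whose shared barcodes are described below. Capitals mark the box, each stretch is written 5′ to 3′ on the strand of its gene, and a match of letters is not a measured binding site. Positions count from the transcript start that RefSeq gives the window, which can lie inside the gene span above, as it does for Acta2, whose boxes fall within its span, and for Mylk.
Acta2, chr19:34255438-34255467, minus strand, CArG-like box 84 to 75 bases before the start: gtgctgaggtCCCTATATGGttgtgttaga
Acta2, chr19:34255388-34255417, minus strand, CArG-like box 34 to 25 bases before the start: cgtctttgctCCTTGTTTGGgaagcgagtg
Myl9, chr2:156775293-156775322, plus strand, CArG box 161 to 152 bases before the start: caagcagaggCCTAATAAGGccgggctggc
Myl9, chr2:156775355-156775384, plus strand, CArG-like box 99 to 90 bases before the start: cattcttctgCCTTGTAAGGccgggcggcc

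Between 1402 (fresh tissue) and 15610 (photon) barcodes per library were kept, with 5930928 to 31894486 UMIs (unique molecular identifiers, the count of captured RNA molecules) over the shared genes and medians of 898.5 to 3025 UMIs per barcode. A level is given as UMIs scaled to the library total (UMIs per 1000000 UMIs, CPM) with an exact 95% Poisson interval, an interval that leaves out any error but that of counting. Groups of 1 library have no replicates, so differences between them could not be checked against replicate error, and no test was made. The libraries stand apart in quality. At least 1% of UMIs came from the nuclear RNA Malat1 in 98.8% of the 11-day barcodes but in only 8.95% to 16.0% of the barcodes of the other 4 libraries, and 11597 of the 13547 deposited tissue barcodes held under 200 genes. Pairs of libraries shared 3 to 69 barcodes, at most 0.642% of a library.

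The 6 smooth-muscle genes were almost absent from every library, while Tpm1, Tpm2, Csrp1 and Sparc had 1056 to 20708 UMIs each in the organoid libraries (see the plot of levels by library). Acta2 had 6 UMIs in control, 1 in photon, 11 in proton and 79 in 11-day organoids and 23 in fresh tissue, which is 0.380, 0.0395, 0.444, 2.48 and 3.88 CPM. Tissue and 11-day organoids were highest and their intervals (2.46 to 5.82 and 1.96 to 3.09 CPM) overlapped, while the 3 libraries of 7-day organoids lay below both. Among these 3, control and proton were not separated by their counting interval and photon lay below the control, on a single UMI. Acta2 therefore stayed under 4 CPM in all 5 libraries.

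Cnn1, which restrains the myosin motor, had 1, 1, 4, 6 and 6 UMIs in the same order of libraries, at most 1.01 CPM in the tissue. Tagln, an actin cross-linker and early smooth-muscle marker, had 5, 5, 3, 14 and 11 UMIs, at most 1.85 CPM in the tissue. For both genes the tissue level lay above that of every organoid library by its counting interval, and neighbouring organoid libraries were not separated. Myh11, the heavy chain that defines mature smooth muscle, had no UMI in the control and proton libraries, 1 in the photon library, 35 in the 11-day library (1.10 CPM) and 2 in the tissue. A count of 0 allows up to 0.190 CPM in the control and 0.121 CPM in the proton library (3 UMIs), and the 11-day level was at least 5.78-fold above the control limit (4.45-fold at the lower end of the counting interval of the ratio).

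Mylk, the kinase that starts contraction, followed a similar course with 0, 3, 2, 49 and 10 UMIs, so that the 11-day level of 1.54 CPM was at least 8.09-fold and the tissue level of 1.69 CPM at least 8.88-fold above the limit of the control library (6.33-fold and 5.97-fold at the lower end of their counting intervals). Myl9, the light chain on which the kinase acts, did not share this order. It had 11, 31, 8, 11 and 9 UMIs, and the photon library (1.22 CPM) and the tissue (1.52 CPM) had the highest values, but no neighbours in its order of levels were separated by their counting intervals. Further apart in that order, the intervals of photon (0.832 to 1.74 CPM) and tissue (0.694 to 2.88 CPM) lay above those of the proton (0.139 to 0.636 CPM) and 11-day (0.172 to 0.617 CPM) libraries. The photon UMIs of Myl9 stood in 24 barcodes, 1 of which held 6 of them.

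The actin-binding tropomyosins were abundant. Tpm1 was at 242 CPM in control, 237 in photon, 223 in proton and 649 in 11-day organoids, and at 21.9 CPM in fresh tissue. It was found in 24.3%, 20.6%, 19.0%, 76.5% and 6.92% of barcodes. Tpm2, which pairs with Tpm1 in muscle and is also made by epithelial cells, was at 264, 228, 226, 178 and 1.69 CPM, in 35.2%, 27.0%, 26.7%, 39.6% and 0.713% of barcodes. In CPM the pair therefore ran in opposite directions among the untreated organoids, where Tpm1 was higher and Tpm2 lower at 11 days. Their shares of barcodes, read at unequal depth, were both higher at 11 days. Both genes were lowest in the tissue, where Tpm2 had 10 UMIs in all.

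Csrp1, a LIM-domain protein on actin bundles that is used as a smooth-muscle marker, was at 122 CPM in control, 65.7 in photon, 64.1 in proton and 155 in 11-day organoids, and at 18.7 CPM in fresh tissue. Sparc, a secreted glycoprotein that binds collagen and is high in basement-membrane-forming and endothelial cells, was at 66.9, 67.8, 73.6, 111 and 56.3 CPM. Sparc was thus the only gene of the 4 whose tissue level lay near that of 7-day organoids. For shares and levels alike, fewer cells that use a gene and less of its RNA per cell cannot be told apart in a library sum.

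**Figure D1:**
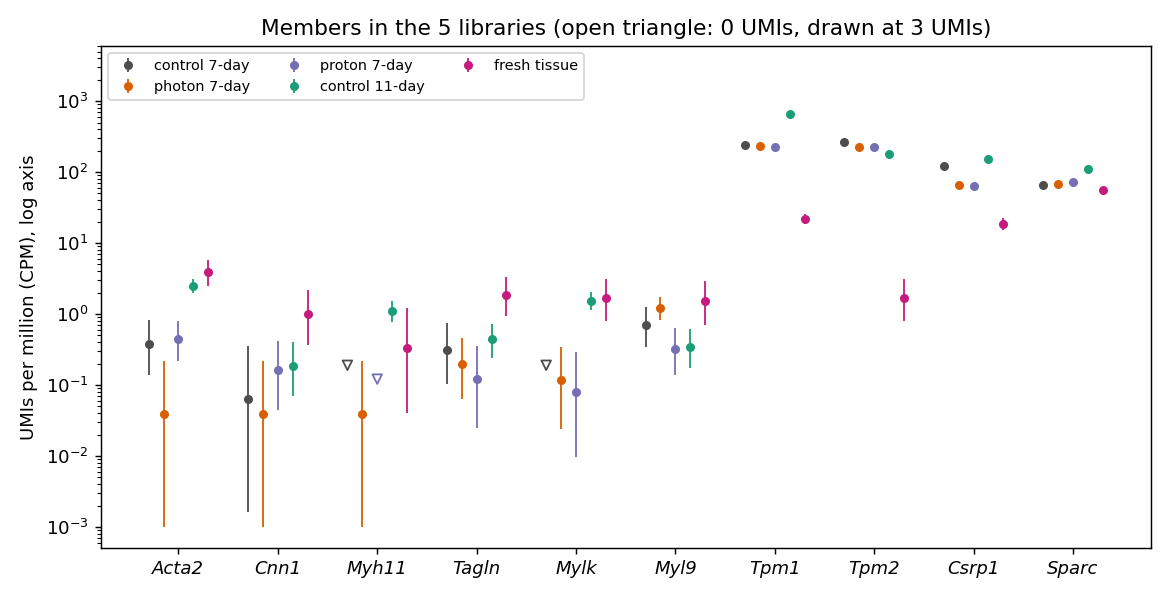
Level of each of the 10 genes in the 5 libraries, in CPM on a log axis. Points are library sums with exact 95% Poisson intervals of counting error, and open triangles mark the limit that 0 UMIs allow. The 6 smooth-muscle genes stay under 4 CPM in every library, while Tpm1, Tpm2, Csrp1 and Sparc reach 56.3 to 649 CPM, apart from Tpm1, Tpm2 and Csrp1 in the tissue (1.69 to 21.9 CPM).

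The near absence of the smooth-muscle isoforms stood beside high levels of the actomyosin genes that all cells use. Cytoplasmic actins Actb and Actg1 were at 1733 and 2208 CPM in control 7-day organoids, light chains Myl6 and Myl12a at 871 and 346 CPM, and the paralogs Tagln2, Cnn3 and Tpm4 at 358, 250 and 258 CPM. The heavy chain Myh9 was at 53.4 CPM. Of a list of 17 other genes of the smooth-muscle type, some were as low as the 6 genes, with Actg2 at most 0.251, Des at most 0.0807, Myocd at most 0.0941 and Kcnmb1 at most 0.0314 CPM in the organoid libraries and no UMI in the tissue, where a count of 0 allows up to 0.506 CPM. Others on the list were not, with Cald1 at 79.5 to 175 CPM, Smtn at 18.3 to 33.8 CPM, Pdlim7 at 38.4 to 59.9 CPM and Fhl2 at 122 to 147 CPM in the organoid libraries. Ppp1r12b reached 47.2 CPM and Itga8 4.36 CPM at 11 days, and Pdlim3 4.72 CPM in the tissue. Levels of different genes were set side by side as molecules counted at the 3′ end, with no scaling by length.

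The basal keratins that myoepithelial cells share with basal duct cells were abundant in the organoids. Krt14 was at 5921, 5958 and 6102 CPM in the control, photon and proton libraries, at 1659 CPM in the 11-day library and at 5.73 CPM in the tissue. Summed over a list of 10 epithelial markers of myoepithelial and basal cells, the level was 11437 CPM in the control library and 42.0 CPM in the tissue. Oxtr, the oxytocin receptor through which myoepithelial cells of the breast contract, had no UMI in any of the 5 libraries. The kept tissue barcodes therefore held very little RNA of basal or myoepithelial epithelium, although markers of immune cells (4223 CPM), acinar cells and endothelial cells (501 CPM) were read in them.

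Irradiation was compared with the control 7-day library, which both comparisons share. A gene was called where its ratio was at least 1.5-fold and the counting interval left out no change, provided that the gene had 200 UMIs or more over the pair of libraries and 20 CPM or more in one of them. Ratios are log2 differences of CPM + 1, and intervals are of the ratio of counts. Of the 10 genes only Tpm1, Tpm2, Csrp1 and Sparc passed these minimums in each comparison, so that no call was possible for the 6 smooth-muscle genes.

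Csrp1 was lower after both kinds of radiation. In photon 7-day organoids its log2 ratio was -0.88 (interval -0.99 to -0.80), and it was found in 9.21% of barcodes instead of 19.6%. It was the 1 gene of the 4 called lower and none was called higher, where 1.54% of the 4359 genes compared were lower and 2.64% higher. In proton 7-day organoids its log2 ratio was -0.92 (interval -1.02 to -0.83), in 8.88% of barcodes. It was again the 1 gene of the 4 called lower and none was called higher, where 1.52% of the 4344 genes compared were lower and 2.99% higher. Csrp1 stayed lower under each alternative of the processing, with log2 ratios of -0.79 to -0.98 for photons and -0.67 to -1.02 for protons.

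The other 3 genes moved little. Tpm1 had log2 ratios of -0.03 after photons and -0.12 after protons, Tpm2 of -0.21 and -0.22, and Sparc of 0.02 and 0.14. Summed over all 10 genes the level went from 697 CPM in the control to 600 CPM after photons and 588 CPM after protons (log2 ratios -0.21 and -0.24). In barcodes with at least 2500 genes the proton ratio turned to 0.028. The median log2 ratio of the 10 was -0.03 and -0.06, where the 6 rare genes are held near 0 by the added CPM, and the median of all genes compared was 0.09 and 0.10. Among the genes that share their functions, none of the 15 cytoplasmic actomyosin genes compared was called in either comparison. Of other smooth-muscle-type genes, Csrp2, the closest paralog of Csrp1, was at 77.5 CPM in the control, 46.9 in the photon and 55.5 in the proton library, and it was called lower after photons alone (the difference between the 2 kinds of radiation was not tested). Of 13 contraction regulators compared, Ccn2, a matricellular target of mechanical signalling, was called higher in both, from 50.6 CPM to 77.4 and 83.6 CPM.

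Markers of other cell types moved in the same libraries, and their part in the Csrp1 ratios was not tested. The acinar list went from 30.9 CPM in the control to 9.28 CPM after photons and 8.36 CPM after protons, nearly all of it Aqp5, which was called lower in both. The list of pericytes and vascular muscle went from 313 to 175 and 211 CPM, mostly through Ndufa4l2 (301, 167 and 203 CPM), which was called lower after photons. Of the myoepithelial and basal list, Lgals7 was the 1 of 9 genes compared that was called, lower in both (435, 289 and 284 CPM). The luminal duct list was at 4264, 3737 and 4046 CPM, with Cldn3 and Cldn4 of its 8 genes called lower after photons, and Fbln1 of the fibroblast list was called lower after photons (41.1 to 25.7 CPM). The immune list went from 14.6 to 26.2 and 23.7 CPM, with Cd68 called higher in both. Differences between photons and protons in these calls were not tested.

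In the smooth-muscle genes themselves the irradiated libraries held few molecules. Acta2 went from 6 UMIs in the control to 1 of 25329838 UMIs in the photon library and 11 of 24769981 in the proton library. Of the 11 proton UMIs, 6 came from a single barcode, and without it the level was 0.202 CPM. No direction is given for Cnn1, Myh11, Tagln, Mylk and Myl9, since none had over 31 UMIs in a 7-day library.

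**Figure D2:**
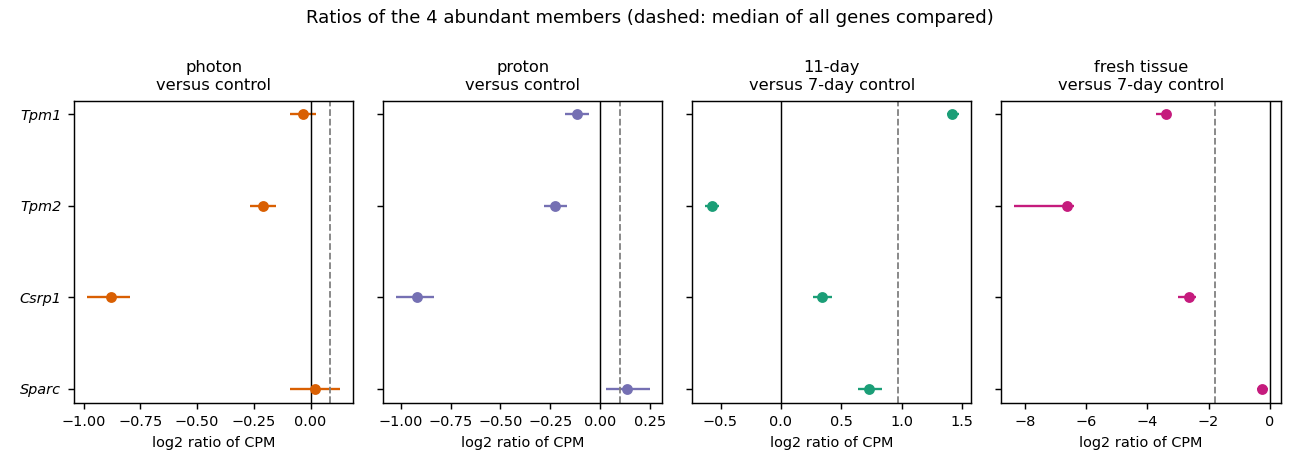
Log2 ratio of CPM + 1 for the 4 abundant genes in 4 comparisons with the control 7-day library, with 95% counting intervals of the ratio of counts and the median of all genes compared as a dashed line. Csrp1 lies at -0.88 and -0.92 after photons and protons, and Tpm1 and Tpm2 lie on opposite sides of 0 at 11 days (1.42 and -0.57).

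Between 7 and 11 days Tpm1 and Sparc rose in CPM, with log2 ratios of 1.42 (interval 1.37 to 1.47) and 0.73, and both were called higher. In barcodes with Malat1 at 1% or more, which are 98.8% of the 11-day but 16.0% of the control library, Tpm1 was at 643 against 377 CPM (0.77), and Sparc at 112 against 83.3 CPM (0.42) fell short of 1.5-fold. Csrp1 (0.34) was not called, and neither was Tpm2, whose ratio of -0.57 fell short of 1.5-fold. Of all 6634 genes compared 62.2% were called higher and 9.56% lower, so 2 of 4 genes called higher is near that background. The median of all genes compared was itself 0.97, against a median of 0.53 over the 10 genes and a log2 ratio of 0.66 for their sum. The median of the 10 includes the rare genes, which did not pass the minimums and whose ratios the added CPM draws toward 0. It is therefore not on the same footing as the 0.97. When each library was scaled by the median gene, Tpm1 was at 0.36 and not called, Sparc was at -0.33, and Tpm2 (-1.63) and Csrp1 (-0.72) were called lower. The directions for Sparc and Csrp1 thus rest on the scaling, and relative to the median gene Tpm1 was higher and Tpm2 lower. Animals, run, gene list and software version also differed between these libraries and cannot be told apart from the time in culture.

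The whole 11-day library shifted with gene length. Among the genes compared, grouped into quartiles by the span from start to end on the GRCm39 annotation, the median log2 ratio was 0.18 in the shortest, then 0.61 and 1.26, and 2.22 in the longest quartile. Tpm1 (27.1 kb) lay 0.81 above and Sparc (28.8 kb) 0.12 above the median of their quartile, whereas Tpm2 (10.3 kb) differed by -0.75 and Csrp1 (32.5 kb) by -0.92 from theirs. Mylk, with a span of 257 kb, and Myh11, with 96.8 kb, belong to the longest quartile, and both had more UMIs at 11 days. Whether reads in introns were counted is not given in the sources used here for each library, and the part of gene length in these ratios was not tested.

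**Figure D3:**
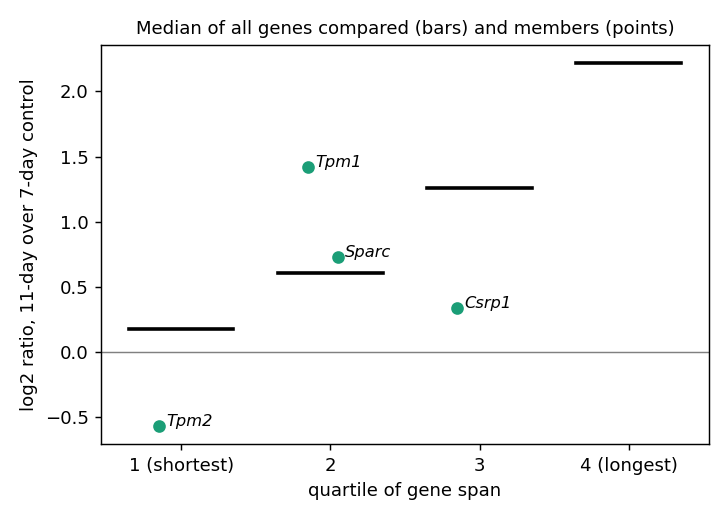
Log2 ratio of the 11-day over the control 7-day library by quartile of gene span. Bars are the medians of all genes compared (0.18, 0.61, 1.26 and 2.22 from the shortest to the longest quartile) and points are the 4 abundant genes, of which Tpm1 stands above and Tpm2 and Csrp1 stand below the bar of their quartile.

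At 11 days Acta2 was concentrated in very few barcodes. Of 9484 barcodes, 6 held 62 of the 79 Acta2 UMIs (78.5%), with 21, 14, 11, 7, 5 and 4 UMIs each, and the remaining 17 UMIs were spread over 13 barcodes. These 6 barcodes were not especially deep, with 2191 to 6574 UMIs where the library median was 3025. Without them Acta2 was at 0.533 CPM, close to the 0.380 CPM of control 7-day organoids.

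Of these 6 barcodes, 4 also held Cnn1, Myh11, Tagln, Mylk or Myl9, and 2 had no UMI of these 5 genes, among them the barcode with 21 Acta2 UMIs. The barcode with 14 Acta2 UMIs was the only one of the library with a UMI of all 10 genes, among them 1 of Cnn1, 2 of Myh11, 2 of Tagln, 1 of Mylk and 3 of Myl9, so that the counts pooled over the 6 barcodes rest mostly on this one. Of the library's 11 Myl9 UMIs, 6 stood in the 6 barcodes, as did 4 of 14 for Tagln, 3 of 35 for Myh11, 2 of 49 for Mylk and 1 of 6 for Cnn1. Most molecules of Tagln, Myh11, Mylk and Cnn1 were therefore found in other barcodes, but the 6 hold a very small part of the library. Per UMI, Myh11 was 140-fold (interval 27.5 to 448) and Mylk 63.6-fold (7.49 to 243) higher in them than in the rest. Lmod1, a filament nucleator of smooth muscle named here after its values were seen, had 4 of its 33 UMIs in these barcodes.

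The abundant genes were higher there as well. Sparc was at 1454 CPM in the 6 barcodes against 110 CPM in the rest (13.2-fold, interval 8.93 to 18.7), Tpm2 at 1220 against 177 CPM (6.88-fold), Csrp1 at 657 against 154 CPM (4.26-fold) and Tpm1 at 1783 against 649 CPM (2.75-fold). The 4 genes had UMIs in all 6 barcodes and all 4 were called higher and none lower, where 3.79% of 7063 genes compared were higher and 1.13% lower. These barcodes were picked for Acta2 after its counts were seen, and the values describe 6 barcodes of 1 library.

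**Figure D4:**
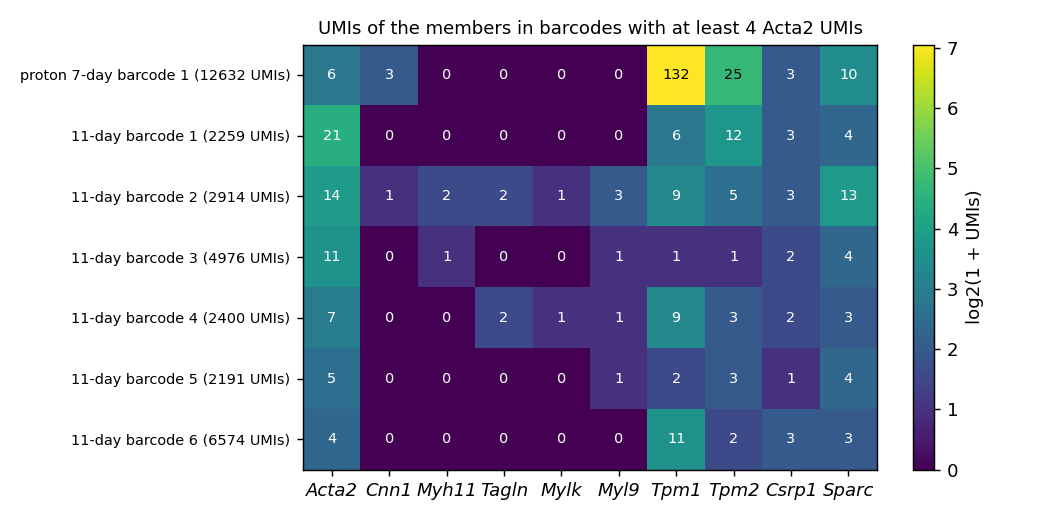
UMIs of the 10 genes in each barcode with at least 4 Acta2 UMIs (6 of the 11-day and 1 of the proton library), as log2(1 + UMIs). Sparc, Tpm1, Tpm2 and Csrp1 are present in each of the 7 organoid barcodes, and 1 of the 11-day barcodes holds all 10 genes.

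The 6 barcodes differed from their library in many genes. Apoe, a lipid carrier, was 55.4-fold higher, the basement membrane collagen gene Col4a1 31.0-fold, the metalloproteinase inhibitor Timp3 30.2-fold, Wfdc18 14.7-fold, the smooth-muscle regulator Cald1 9.69-fold and the actin cross-linker Palld 6.77-fold, a choice of genes made after the values were seen. Of 6 other smooth-muscle-type genes compared, Cald1 and Pdlim7 (3.92-fold) were higher and none lower, while Fhl2 (0.334-fold), Ppp1r12b (0.995-fold), Smtn (1.39-fold) and Csrp2 (0 UMIs) were not called. Of 18 cytoplasmic actomyosin genes compared, 6 were higher and none lower, and of 11 basement membrane genes 4 were higher and none lower. Of 16 contraction regulators, the phosphatase subunit gene Ppp1r12a was higher (2.60-fold), and Ppp1cb (0 UMIs) and Rock1 (1 UMI) were lower, with the list at 3753 against 3566 CPM. Of 8 luminal duct markers, 4 were lower and none higher. Keratins Krt14 and Krt5, which basal and myoepithelial cells share, were at 0.509 and 0.411 times the level of the rest, while Trp63, a basal transcription factor, was higher (2.48-fold, interval 1.13 to 4.70) and Krt17 (1.04) and Itga6 (1.60) were not called. The sum of that list of 10 markers was 4833 CPM (3944 to 5861) against 5854 CPM. The endothelial and immune lists had no UMI in these barcodes and the list of pericytes and vascular muscle had 1, where Rgs5, Pdgfrb and Notch3 were at 0. At this depth a count of 0 is no sign of absence, since its interval reaches 173 CPM, and the rest of the library was at 9.82 CPM for the endothelial and 4.33 CPM for the immune list. The acinar list was at 469 against 25.2 CPM, on 10 Aqp5 UMIs in 1 barcode, the fibroblast list at 141 against 35.7 CPM on 3 UMIs and the Schwann list at 93.8 against 3.39 CPM on 2 UMIs.

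The smooth-muscle genes were rarely found together in any library. A barcode with UMIs of at least 2 of Acta2, Cnn1, Myh11 and Tagln was seen in none of 6494 control and none of 15610 photon barcodes, which allows a share of up to 0.0462% and 0.0192%. It was seen in 1 of 15325 proton barcodes, in 3 of 9484 barcodes at 11 days (0.0316%, Clopper-Pearson interval 0.00652 to 0.0924%) and in 1 of 1402 tissue barcodes (0.0713%). Barcodes with exactly 1 of the 4 genes numbered 12, 8, 9, 61 and 37. The single proton barcode was deep, with 12632 UMIs, and held 6 Acta2, 3 Cnn1, 132 Tpm1, 25 Tpm2, 3 Csrp1 and 10 Sparc UMIs beside 66 of Krt14, 59 of Krt5 and 119 of Krt17. It therefore carried contractile and basal epithelial RNA under 1 barcode. The tissue barcode with 3 of the 4 genes held 1 UMI of each and no Krt14 or Krt5 UMI, at 10452 UMIs in all.

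Co-detection was compared at equal depth, with each barcode of at least 1000 UMIs thinned to 1000. At 11 days 9 thinned barcodes held Acta2, and Sparc was found with it 5.42 times as often as the product of the shares gives (interval 1.76 to 12.7), Tpm2 3.57 times (1.16 to 8.33) and Mylk 49.4 times on 1 shared barcode. Csrp1 at 3.04 times (0.827 to 7.77) and Tpm1 at 2.04 times (0.882 to 4.02) were not separated from no excess. By their ratios alone these were 5 of the 5 genes compared at 2 times or more, where 13.3% of all 12401 genes compared reached that. With Malat1 at 1% or more it was 4 of 5. In the tissue 6 thinned barcodes held Acta2, and none of the 3 genes compared reached it, where 7.51% of 4726 genes did. Summed across all 45 pairs of the 10 genes, co-detections were 1.12, 1.01, 1.09, 1.08 and 2.31 times the number the shares give for the control, photon, proton, 11-day and tissue libraries. Over all genes compared in the tissue, the median of such a ratio was 2.33 with Sparc, 1.80 with Tpm1, 0.348 with Csrp1 and 0 with Acta2. The tissue value of 2.31 rested on 11 co-detections of a pair, where a barcode with several of the genes counts once per pair. In the 157 tissue barcodes with Malat1 at 1% or more the value was 1.19 (interval 0.594 to 2.13).

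Among the abundant genes, Tpm1 and Sparc met in the tissue at 4.79 times the product of the shares (interval 1.76 to 10.4), on 6 barcodes and where 57.7% of 4725 genes compared with Sparc reached 2 times. Among the organoids this ratio was highest in the control 7-day library, at 1.74 times the product of the shares (interval 1.27 to 2.33, 45 barcodes). The ratio was 1.13 (0.906 to 1.39) in the photon, 1.36 (1.08 to 1.68) in the proton and 0.995 (0.902 to 1.10) in the 11-day library. Tpm1 and Tpm2, whose products can pair in 1 filament, met 0.896, 0.946, 1.05 and 1.09 times as often as the shares give in the 4 organoid libraries. Only the 11-day interval (1.01 to 1.18) left out no change for this pair.

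When barcodes were clustered without the 10 genes, the Acta2-rich barcodes of the 11-day organoids fell together. Cluster 6, of 258 barcodes and led by Wfdc18, Igfbp2, Apoe, Sostdc1, Adamts9, Timp3 and Aqp5, held 5 of the 6 and 60 of the 79 Acta2 UMIs (88.2 CPM), and it was given no cell type name. The sixth lay in cluster 2. Once its 5 Acta2-rich barcodes were left out, an alternative chosen after the data were seen, Csrp1 in this cluster was still at 509 CPM against 147 CPM in the other clusters (3.47-fold, interval 3.10 to 3.87). Tpm2 was at 428 against 172 CPM (2.49-fold), Sparc at 181 against 109 CPM (1.66-fold) and Tpm1 at 994 against 641 CPM (1.55-fold). All 4 were thus higher, where 5.68% of 6654 genes compared were, and 9 further Acta2 UMIs lay here (13.6 CPM). The other clusters were at 0.609 CPM of Acta2, a value that still holds the 11 UMIs of the sixth barcode. As these are cells of 1 library sorted by their own RNA, the values describe the cluster and test nothing.

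Elsewhere the abundant genes followed different clusters. Tpm1 was as high in cluster 3 (994 CPM), led by Lgals1, Sostdc1 and Lgals7, as in cluster 6, and lowest in cluster 4 (469 CPM), led by Hp, Ptprd and Fxyd2. Sparc was at 115 to 216 CPM in 5 clusters and at 20.2, 26.2 and 24.2 CPM in clusters 4, 5 and 7. Mylk had 19 of its 49 UMIs in cluster 1 (3.94 CPM) and 5 in the small cluster 6, where its level was 7.35 CPM (interval 2.39 to 17.2) against 1.41 CPM in the other clusters. Myh11 had 12 of its 35 UMIs in cluster 2 (2.14 CPM) and 2 in cluster 6, at 2.94 CPM (0.356 to 10.6) against 1.06 CPM elsewhere. Without its Acta2-rich barcodes cluster 6 held no Myh11 UMI, and Mylk was at 4.52 CPM there (0.932 to 13.2) on 3 UMIs.

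**Figure D5:**
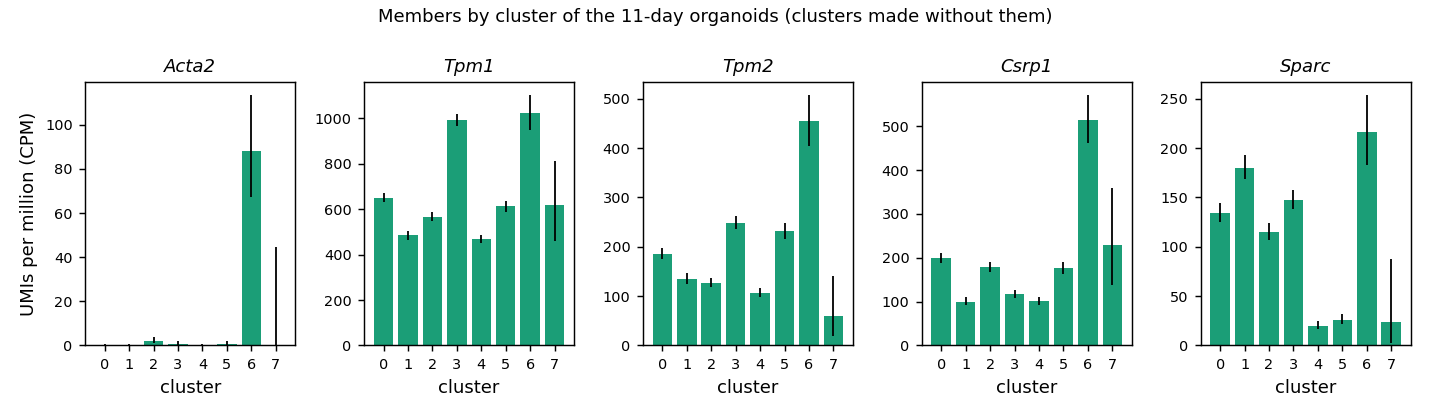
Level of Acta2, Tpm1, Tpm2, Csrp1 and Sparc in the 8 clusters of 11-day organoids, in CPM with exact 95% Poisson intervals. Cluster 6 has the highest bar in each panel (Acta2 88.2, Tpm2 454, Csrp1 515 CPM), with Tpm1 nearly as high in cluster 3, and Sparc is low in clusters 4, 5 and 7.

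In control 7-day organoids Tpm1 was high in 1 cluster. Cluster 4, of 450 barcodes, had 572 CPM of Tpm1 against 56.5 to 185 CPM in the other 5 clusters, and 123 CPM of Sparc against 8.31 to 78.2 CPM. Tpm2 in contrast was nearly level there (268 CPM, range over the others 178 to 300 CPM). Tpm1 molecules were also concentrated within barcodes. In the control library 43 barcodes with at least 10 Tpm1 UMIs held 25.9% of them, and the photon (76 barcodes, 24.7%) and proton (54 barcodes, 25.2%) libraries were alike in this. Those control barcodes had a median of 13181 UMIs against 896 in the rest, and Malat1 at a median of 2.66% against 0.212%, and the part of depth and nuclear RNA was not tested.

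In the fresh tissue Sparc was read mostly in endothelial-like barcodes. Cluster 8, of 69 barcodes, had 8 of 9 endothelial markers at least 2-fold above the other clusters, with Pecam1, Flt1 and Plvap among its leading genes, and is called endothelial-like. It held 284 of the 334 Sparc UMIs (1209 CPM, interval 1072 to 1358), in 64 of its 69 barcodes (92.8%), and not 1 Acta2 UMI. In cluster 6, which is led by Hspb1, Fabp4 and Emcn, Sparc was at 152 CPM, and in the other 9 clusters at 0 to 8.71 CPM. The genes whose level over tissue barcodes was most like that of Sparc were Cavin2 (Pearson r 0.78 over 1402 barcodes), Col4a1 (0.78), Pecam1 (0.77), Sparcl1 (0.76) and Ptprb (0.76), all from the same library and partly set by its depth. In the organoid libraries, where the endothelial list summed to only 9.81 to 19.0 CPM, Sparc stood at 66.9 to 111 CPM.

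The 23 tissue UMIs of Acta2 stood in 21 barcodes of 8 clusters at 0.471 to 21.7 CPM. The level was highest in cluster 6 (4 UMIs, 21.7 CPM, interval 5.91 to 55.5, against 3.31 CPM elsewhere), which also held 3 of the 10 Tpm2 UMIs (16.3 against 1.22 CPM). In cluster 6 the endothelial list was at 932 CPM, with 3 of its 9 markers at least 2-fold above the other clusters. The list of pericytes and vascular muscle was at 16.3 CPM there on 3 UMIs, against 2.36 CPM over the whole tissue library. None of its markers could be counted as 2-fold, since a marker needed at least 10 UMIs in the cluster for that. The immune-marked cluster 9, of 48 barcodes, held 6 of them (18.5 CPM, interval 6.80 to 40.3, against 3.03 CPM elsewhere), together with 4 of the 11 Tagln UMIs (12.4 against 1.25 CPM), 3 of the 10 Mylk UMIs (9.27 against 1.25 CPM) and 2 of the 6 Cnn1 UMIs (6.18 against 0.713 CPM). Acta2 was at 3.88 CPM in kept barcodes and at 4.03 CPM in the 11597 barcodes with under 200 genes, so kept barcodes held no more of it than these barcodes of low complexity, and free RNA was not measured apart from them. Tagln (1.85 against 1.23 CPM), Cnn1 (1.01 against 0.613) and Myl9 (1.52 against 1.14) were also near their level there, while Sparc (56.3 against 3.68), Tpm1 (21.9 against 10.2) and Csrp1 (18.7 against 5.78) were above it. In the 21 barcodes with Acta2 the list of pericytes and vascular muscle had no UMI, the myoepithelial list was at 24.6 CPM and the immune list at 22895 CPM. The 5 genes most like Acta2 over tissue barcodes (Galk2, Atp13a2, Tpra1, Sft2d1 and Fdft1, r 0.14 to 0.18) were each found in 23 to 72 barcodes, and at such counts they set no pattern.

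Set against control 7-day organoids, the tissue was lower in Tpm1 (log2 ratio -3.41), Tpm2 (-6.63) and Csrp1 (-2.64) and at a log2 ratio of -0.24 in Sparc. Sparc turned direction in barcodes with Malat1 at 1% or more, where it was at 362 CPM (interval 321 to 407) in the tissue against 83.3 CPM in the control. The sum of the 10 genes was lower (-2.67), while their median was 0.49. That median includes the rare genes, which did not pass the minimums and whose ratios are made smaller by the added CPM. Thus 3 of the 4 genes were called lower and none higher, where 86.6% of 4246 genes compared were lower and 6.29% higher, so the count of lower genes is near the background. The median over all genes compared was -1.78, so that Tpm2, Tpm1 and Csrp1 lay below and Sparc above the median gene. Scaled by the median gene, Csrp1 was at -0.96 and called lower, and Sparc was at 1.43 and called higher. Acinar markers alone stood at 42803 CPM in this library against 30.9 CPM in the control, and their part in the ratios was not tested.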

How the data were processed

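The authors deposited 1 matrix of raw UMI counts per library (genes by barcodes) made with Cell Ranger 5 on mm10 per the labels; file headers name 3.0.1 for 4 libraries and 7.0.0 for the 11-day library, and the study's methods name GRCm39. Here barcodes with at least 200 genes and at most 5% mitochondrial UMIs were kept, and the highest Scrublet scores (scanpy 1.11.5) were removed as doublets at 0.8% per 1000 barcodes, 1.13% to 14.6% of a library. The study's minimum of 2500 genes leaves 25 to 637 barcodes and was an alternative. Counts over 30406 shared genes were summed, since cells are not replicates. Depth was 5930928 to 31894486 UMIs. Clusters used Leiden (leidenalg 0.10.2) without the 10 genes. Ratios had a pseudocount of 1 CPM. Named genes were the 10 members, list genes of at least 20 CPM or needed for a small count, and the 5 nearest to Acta2. Leading genes of clusters and of Acta2-rich barcodes, and those nearest to Sparc, were named after their values were seen. The members and lists were chosen with earlier results of these data known. Promoter windows came from RefSeq. Python 3.11.15 and scipy 1.17.1 were used.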

Additional observations from a re-analysis of the deposited data

Results flagged for a closer look

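Some of the genes were more abundant in barcodes left out of the comparisons than in those kept, which is why they are listed here. In barcodes with over 5% mitochondrial UMIs, Tpm1 was at 854 CPM against 242 CPM in kept barcodes of control 7-day organoids, at 646 against 237 CPM in the photon library, at 543 against 223 CPM in the proton library and at 59.9 against 21.9 CPM in the fresh tissue. In the same kind of barcode Mylk was at 4.50 CPM in 11-day organoids against 1.54 CPM in kept ones (19 UMIs), and Tagln at 2.05 CPM in the photon library against 0.197 CPM (4 UMIs). Sparc was at 157 CPM in the 16 tissue barcodes removed as doublets against 56.3 CPM (12 UMIs).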

How the results depend on the processing

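Counts in 1 library per group limit every statement here to these libraries, and 6 of the 10 genes are too rare for a ratio. No paired analysis was possible because each group has 1 library and no result comes from a test. The log2 ratio of the summed 10 genes was -0.21 for photons, and -0.11 with at least 2500 genes, -0.17 with Malat1 at 1% or more, -0.30 thinned and -0.31 scaled by the median gene. For protons it was -0.24, and 0.028 with 2500 genes, -0.30 thinned and -0.34 scaled. At 11 days it was 0.66, and 0.60 with mitochondrial UMIs up to 10%, 0.57 with all barcodes, 0.017 with 2500 genes, 0.45 with Malat1, 0.70 thinned and, reversed, -0.40 scaled. For the tissue it was -2.67, and -3.45 with all barcodes, -5.08 with 2500 genes, -0.60 with Malat1, -2.34 thinned and -0.99 scaled. Sparc at 11 days reversed to -0.48 with 2500 genes and -0.33 scaled. The share of barcodes with 2 core genes was 0.00653% in protons, and 0% when 3 were asked or thinned, 0.459% with 2500 genes and 0.0729% with Malat1. At 11 days it was 0.0316%, and 0% with 2500 genes. In the tissue it was 0.0713%, and 4.00% with 2500 genes, 0.633% with Malat1 and 0% thinned. Co-detection rose from 1.12 to 1.75 without thinning and 1.27 with Malat1 in the control, from 1.01 to 1.53 and 1.21 in photons, and from 1.09 to 1.56 without thinning in protons. Of the other settings of these summaries, 51 stayed within counting error. For single genes 244 settings stayed within it and 92 moved. The causes were not tested.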
